A study of Mus musculus with 5 samples.

Results

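Type I interferon, which infected or damaged cells release, binds a receptor that signals to the nucleus. A complex that includes STAT2 and IRF9 then binds a DNA motif, the interferon-stimulated response element (ISRE), in the promoters of interferon-induced genes. The proteins made from those genes sense foreign RNA, degrade it, block virus entry or feed back on the signal. Endothelial cells carry the receptor, and many of these genes are transcribed at a basal level without infection.

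A list of 34 interferon-induced effector genes was examined in endothelial cells, the vessel lining, sorted from the mouse thymus. Its members were the probe sets that the platform annotation pairs with one of the 34 symbols and no other. That gave 40 probe sets for 29 genes, out of 22690 probe sets on the array. Ddx58, Ly6e, Isg15, Ifi44 and Xaf1 had no such probe set, so their expression was not analysed here. Mx1 had 1, which did not pass the filter on low values, so 28 genes were tested among 8940 in all. The samples were 2 arrays of mice taken 4 days after a sublethal total body irradiation of 550 cGy from a cesium source, given without hematopoietic rescue (day 4), and 3 arrays of untreated mice (day 0). All mice were C57BL/6J females of 6 to 8 weeks, and each array held RNA pooled from several mice. Blood cells were removed with CD45 magnetic depletion, and CD45-negative, EpCAM-negative, VE-cadherin-positive cells were flow sorted. The cell type label read CD45- thymic stromal cells for day 4 and thymic endothelial cells for day 0, while the sort described was the same. Values are GCRMA log2 expression, and changes are day 4 minus day 0. A gene with several probe sets past the filter is given by the set with the highest mean, and counts of genes rest on that set.

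None of the 28 effector genes passed the limma test across all genes 4 days after irradiation. The 2 day 4 arrays disagreed about them: replicate 1 carried higher values of most members than replicate 2 and than any untreated array, while replicate 2 lay near the untreated arrays. The members closest to the threshold were Oasl1 and Ifit1, and both day 4 arrays lay above all untreated arrays for each. The median log2 change of the 28 genes was 0.20, beside -0.023 over all 8940 genes. It was 0.35 with day 4 replicate 1 alone and 0.051 with day 4 replicate 2 alone.

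Promoter stretches of 6 members that hold an ISRE match are given here, because this motif is the DNA element through which the pathway acts. The first 4 belong to genes whose day 4 arrays both lay above the untreated ones, and the last 2 to genes whose arrays overlapped. Sequences are from RefSeq on GRCm38.p6, 5′ to 3′ on the strand of the gene, with the ISRE match in capitals and 30 bases on each side where the window allows.
Ifit1 (chr19:34640750-34640843, + strand): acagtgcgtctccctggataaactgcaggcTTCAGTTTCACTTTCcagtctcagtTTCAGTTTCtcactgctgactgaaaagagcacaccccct
Ifit3 (chr19:34583344-34583465, + strand): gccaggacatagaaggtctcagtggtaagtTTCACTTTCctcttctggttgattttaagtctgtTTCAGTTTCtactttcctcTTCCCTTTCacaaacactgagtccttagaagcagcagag
Rsad2 (chr12:26456533-26456601, - strand): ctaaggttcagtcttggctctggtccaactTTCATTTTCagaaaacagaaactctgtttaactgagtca
Stat2 (chr10:128270248-128270315, + strand): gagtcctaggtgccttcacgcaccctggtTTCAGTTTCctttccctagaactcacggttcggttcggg
Gbp2 (chr3:142620575-142620643, + strand): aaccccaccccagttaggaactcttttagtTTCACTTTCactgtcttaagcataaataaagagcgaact
Ifitm2 (chr7:140955969-140956037, - strand): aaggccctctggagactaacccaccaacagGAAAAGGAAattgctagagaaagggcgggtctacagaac
The letters searched for the ISRE were GAAANNGAA, or TTCNNTTTC on the other strand, with overlapping matches kept. They are a short form of the element, so matches are more frequent than those of the whole element would be. A longer form had been searched before this one, and its counts are not given here. The promoter window ran from 250 bases before to 50 bases after each annotated start. Of the 34 listed genes, 24 had an entry in the promoter table and 16 of those held an ISRE match. Counted by window, 17 of 29 member windows (58.6%) held one, against 8.56% of all 32851 windows. In Ifit1 the matches began 109, 103 and 84 bases before the start, the first 2 of them overlapping, and in Ifit3 155, 121 and 102 bases before it. The motif TTCNNNGAA, the interferon gamma-activated site, which reads the same on both strands, was in 7 of the 29 member windows (24.1%) and in 8.30% of all windows. A match describes letters in the window and not binding.

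**Figure D1:**
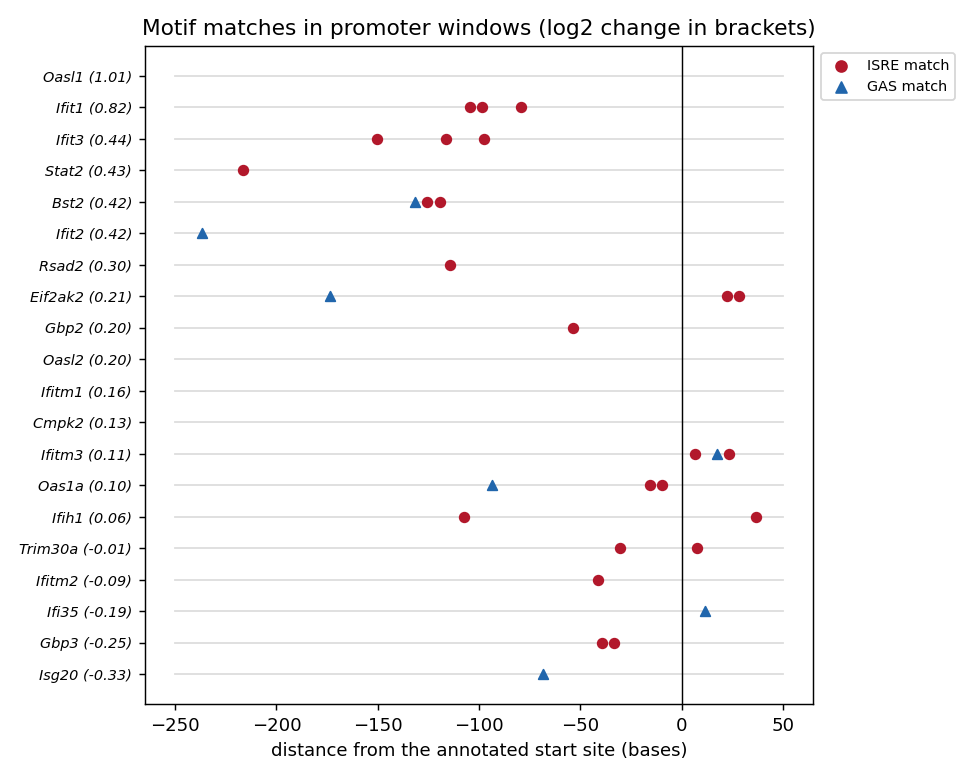
Matches to the ISRE (circles) and to the interferon gamma-activated site, GAS (triangles), in the promoter windows of the 20 tested members with an entry, drawn at the middle of each match by distance in bases from the annotated start site; genes run down the page by log2 change, day 4 minus day 0, given in brackets. Matches stand at genes along the whole range of changes, and Oasl1, with the change of 1.01 at the top, has none.

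Among the tested members with a promoter entry, 13 had an ISRE match and their median log2 change was 0.20, with a range of -0.25 to 0.82. The other 7 had a median of 0.16 and a range of -0.33 to 1.01. Oasl1, Ifit2, Oasl2, Ifitm1, Cmpk2, Ifi35 and Isg20 were the 7 without the letters searched.

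The marker levels of the sort were checked first. All 12 endothelial markers were tested and 0 passed the threshold, beside 2.85% of all genes. With an unadjusted limma p under 0.05, 1 was lower (Tek) and 0 higher, beside 11.1% and 10.1% of all genes. The mean log2 level of the 12 was 10.41 and 10.69 on the day 4 arrays and 10.56 to 10.69 on the day 0 arrays. Cdh5, which encodes the VE-cadherin of the sort, stood at 11.38 and 11.40 on the day 4 arrays, against 11.57, 11.51 and 11.64 on the day 0 arrays. Pecam1, an adhesion molecule of endothelium, read 9.67 and 10.05 at day 4 and 9.70, 9.63 and 9.85 at day 0 (change 0.14, limma adjusted p = 0.610). Ptprc, which encodes CD45, read 6.68 and 6.38 at day 4 and 6.86, 6.08 and 6.63 at day 0, and Epcam read 7.17 and 5.67 at day 4 and 7.27, 6.60 and 6.83 at day 0. Of 18 macrophage and myeloid markers 17 were tested, and Itgam did not pass the filter. Of the 17, 5 were called higher and 0 lower at day 4, beside 134 and 121 of all 8940 genes. Cd163 and Vsig4, both called, were under the filter level of 4 on all day 0 arrays. Fcgr1, also called, was above it on day 0 replicate 1 only. Cd163, Vsig4 and Fcgr1 passed only through the day 4 arrays, where they are high, so their calls carry no weight as a test. Cd14 and Fcgr3, the others called, were above 4 on all arrays. Both day 4 arrays lay above all day 0 arrays for 16 of the 17, beside 18.0% of all genes. The median log2 change of the 17 was 1.42. The mean level of those 17 was 7.82 and 7.70 at day 4 against 5.86 to 6.75 at day 0. Thymocyte and B cell markers were lower at day 4, with 5 of 8 tested thymocyte markers and 2 of 2 B cell markers called. Over all 8940 genes, 121 were called lower. The 2 lists hold 12 and 5 markers, of which the rest were not tested. Of the called markers in these lists, only Dntt was above the filter level of 4 on both day 4 arrays. The others passed only through the day 0 arrays, where they are high, so their calls as lower carry no weight as a test. Of 7 plasmacytoid dendritic cell markers, a list that also holds Bst2, 5 were tested, and Siglech and Klk1 were not. Of the 5 tested, 2 were called lower (Ccr9 and Ly6d). Ccr9 was under the filter level of 4 on both day 4 arrays, so it passed only through the day 0 arrays. The others were not called and had overlapping arrays, with changes of 0.42 for Bst2, 0.13 for Cox6a2 and -0.19 for Tcf4. The lower mean of this list thus rests on Ccr9 and Ly6d. The mean level of the thymocyte markers was 4.27 and 4.30 at day 4 against 5.68 to 6.45 at day 0, with Rag1, a recombinase of lymphocyte precursors, at 3.06 and 3.14 against 7.58, 6.51 and 7.25. The B cell mean was 3.27 and 3.20 at day 4 against 4.45 to 4.65 at day 0, and the plasmacytoid dendritic cell mean was 6.57 and 6.70 against 7.26 to 7.77. Many interferon-induced genes are also transcribed in these blood cells, whose part in the results was not tested. In sorted bulk RNA, fewer cells of a type and less RNA per cell cannot be told apart. Across all genes tested the 2 day 4 arrays correlated with r = 0.984 and the day 0 arrays with r of 0.990 to 0.992, as a description only.

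Over all 8940 genes, 255 passed the limma threshold of a Benjamini-Hochberg adjusted p under 0.05, which is 2.85% of them, 134 higher and 121 lower. At that rate fewer than 1 of 28 genes would pass, so the count of 0 effector genes does not stand apart from the background. At an unadjusted limma p under 0.05, 8 of the 28 (28.6%) were higher and 0 lower, beside 10.1% and 11.1% of all genes. On 10 of the 28 (35.7%) both day 4 arrays lay above all 3 day 0 arrays, beside 18.0% of all genes. On 1, Ifi35, both lay below, beside 23.0% of all genes. The estimated change was above 0 for 23 of the 28 (82.1%), beside 45.7% of all genes.

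**Figure D2:**
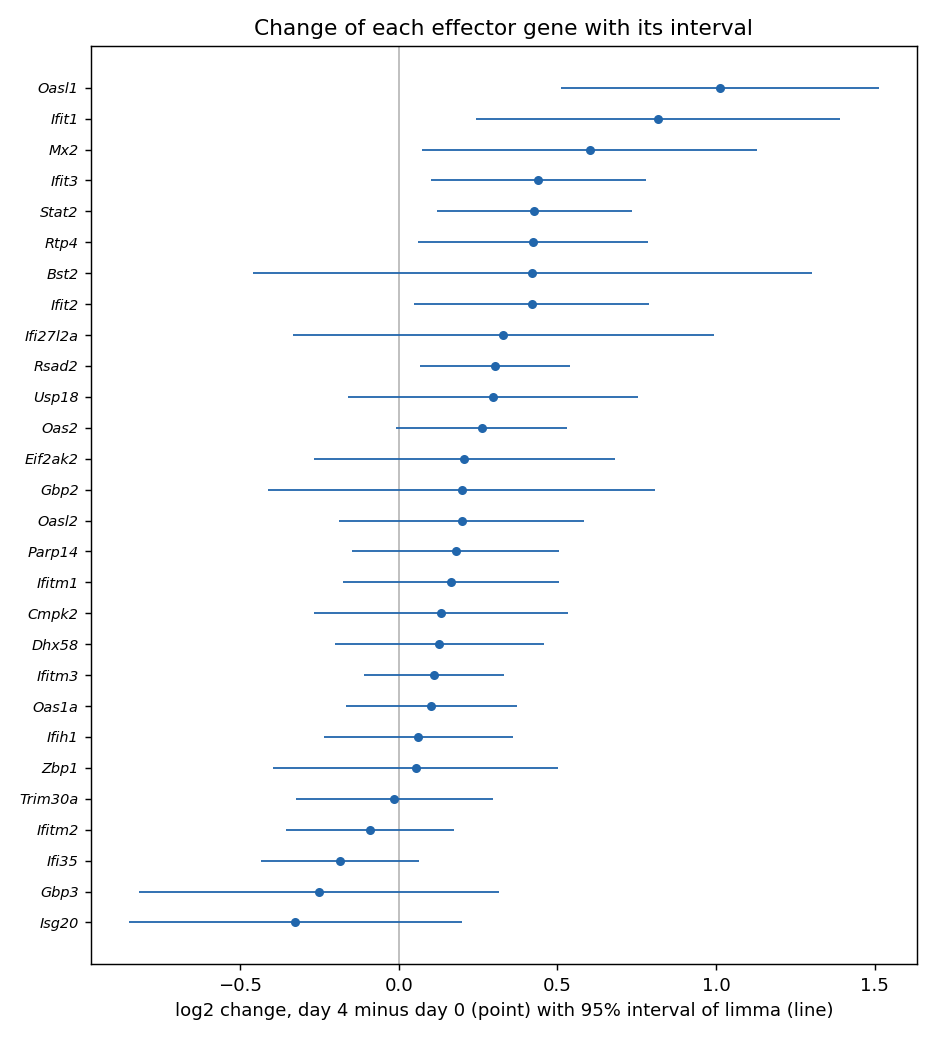
Log2 change of each of the 28 tested effector genes, day 4 minus day 0 (points), with the 95% interval of the limma fit (lines), ordered from the highest change to the lowest. Oasl1 stands at 1.01 and Ifit1 at 0.82, and 20 of the 28 intervals include 0.

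The oligoadenylate synthetase family makes short oligoadenylates that switch on an RNA-degrading enzyme, and its OASL members are relatives with ubiquitin-like domains. Oasl1, which in mice holds back translation of Irf7 mRNA, read 7.91 and 7.19 on day 4 replicates 1 and 2, against 6.62, 6.50 and 6.50 on the day 0 arrays. Both day 4 arrays were above every untreated array, and the 2 differed from each other by 0.72. The log2 change was 1.01 ± 0.21 (SE), a fold of 2.02 with a 95% interval of 1.42 to 2.86, and the limma adjusted p was 0.0603. Oas2 read 7.30 and 7.46 at day 4, against 7.00, 7.14 and 7.22 at day 0. Oas2 was thus a little higher on replicate 2, unlike Oasl1, and its change of 0.26 had a limma adjusted p of 0.244. Oas1a and Oasl2 changed by 0.10 and 0.20, and for both day 4 replicate 2 lay inside the day 0 range.

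The IFIT proteins bind viral RNA ends and halt its translation, with IFIT1 recognising caps that lack methylation. Ifit1 read 10.55 and 9.71 on day 4 replicates 1 and 2, against 9.41, 9.23 and 9.30 at day 0. Replicate 1 lay 1.24 above the day 0 mean and replicate 2 lay 0.40 above it. The change of 0.82 ± 0.24 (SE), a fold of 1.76 with a 95% interval of 1.18 to 2.62, had a limma adjusted p of 0.129. Ifit2 read 9.70 and 9.27 at day 4, against 8.96, 9.05 and 9.19 at day 0, and Ifit3 read 8.91 and 8.63, against 8.29, 8.19 and 8.51. All 3 family members had both day 4 arrays above the untreated ones and an unadjusted limma p under 0.05. Their adjusted p lay between 0.129 and 0.193. The printed stretches of Ifit1 and Ifit3 each carry 3 ISRE matches, while Ifit2 had none in its windows.

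Mx2 encodes a dynamin-like GTPase of the family that traps viral particles. It read 7.80 and 7.14 at day 4, against 6.63, 7.04 and 6.93 at day 0, a change of 0.60 ± 0.22 (SE; limma adjusted p = 0.190). Its relative Mx1, for which C57BL/6 mice are known to carry a defective allele, read 3.75 and 3.39 at day 4 and 3.38, 3.20 and 3.03 at day 0, all under the filter at a log2 value of 4. The guanylate-binding proteins attack the vacuoles of intracellular microbes. Gbp2 read 11.06 and 10.14 at day 4, against 10.40, 10.42 and 10.39 at day 0. On this set replicate 1 was above all untreated arrays and replicate 2 below all of them, and the change was 0.20 (limma adjusted p = 0.681). On the other Gbp2 set, at 10.98 and 10.25 at day 4 against 10.19, 10.28 and 10.36 at day 0, replicate 2 lay inside the untreated range. Gbp3 read 9.52 and 8.85 at day 4, against 9.16, 9.47 and 9.68 at day 0, with a change of -0.25 that did not pass.

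**Figure D3:**
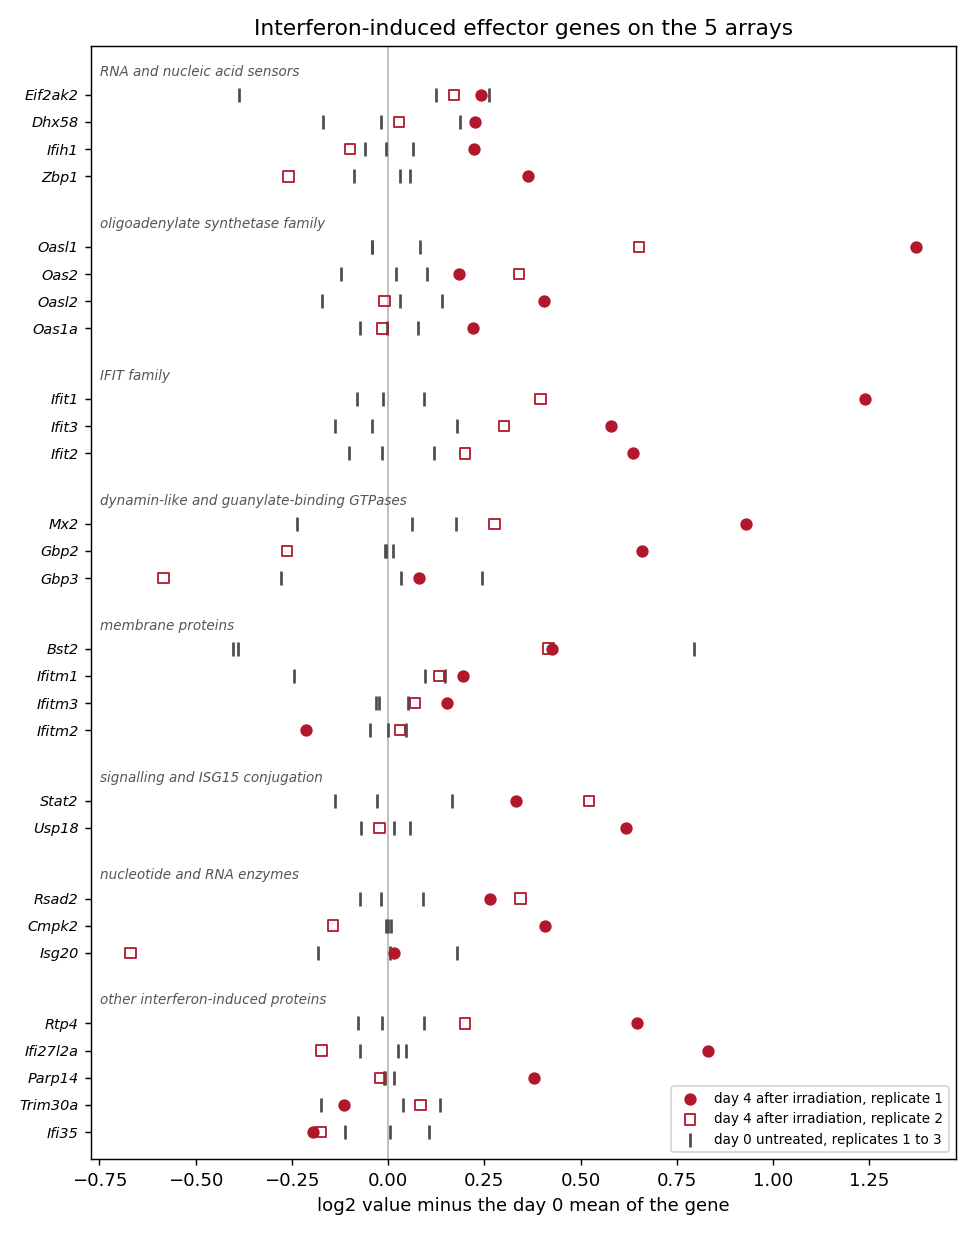
Log2 value minus the gene's day 0 mean for the 28 tested effector genes, grouped by role down the page; filled circles are day 4 replicate 1, open squares day 4 replicate 2 and grey ticks the 3 day 0 arrays. The filled circle lies right of the open square for 22 of the 28 genes, and right of all 3 ticks for 21.

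Stat2 encodes the signalling subunit of the ISRE-binding complex, and Usp18 an enzyme that removes ISG15 from proteins and damps the receptor. Stat2 read 5.79 and 5.98 at day 4, against 5.32, 5.62 and 5.43 at day 0. Its change of 0.43 ± 0.13 (SE) had a limma adjusted p of 0.133 and was larger on replicate 2 than on replicate 1. Usp18 read 8.56 and 7.92 at day 4, against 7.96, 7.87 and 8.00 at day 0. Only replicate 1 was outside the untreated range of Usp18, and the change of 0.30 did not pass (limma adjusted p = 0.405).

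Rsad2 (viperin) makes a chain-terminating nucleotide, Cmpk2 encodes a mitochondrial nucleotide kinase, and Isg20 encodes an exonuclease. Rsad2 read 11.27 and 11.34 at day 4, against 10.98, 10.93 and 11.09 at day 0, a change of 0.30 ± 0.098 (SE; limma adjusted p = 0.153). Both day 4 arrays lay above the untreated arrays on all 3 Rsad2 probe sets. The other 2 sets changed by 0.57 and 0.55, and on them replicate 1 exceeded replicate 2, by 0.46 and 0.16. Cmpk2 read 8.34 and 7.79 at day 4, against 7.93, 7.94 and 7.93 at day 0, so that on this set replicates 1 and 2 lay on opposite sides of a narrow untreated range. On the other Cmpk2 set, at 5.46 and 5.13 at day 4 against 4.96, 4.80 and 4.74 at day 0, both day 4 arrays were above the untreated ones, and the change over the mean of both sets was 0.30 (limma adjusted p = 0.296). Isg20 read 7.95 and 7.27 at day 4, against 8.11, 7.75 and 7.94 at day 0, a change of -0.33 (limma adjusted p = 0.427).

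The log2 changes of the 4 nucleic acid sensors tested lay between 0.053 and 0.21, with a median of 0.095, and none of the 4 had arrays that separated the groups. Ifih1, the sensor of long double-stranded RNA, read 9.31 and 8.98 at day 4, against 9.15, 9.02 and 9.08 at day 0. Its change of 0.062 had a 95% interval of -0.24 to 0.36. Zbp1, which senses left-handed nucleic acids and can trigger cell death, read 6.80 and 6.17 at day 4, against 6.49, 6.34 and 6.46 at day 0. Eif2ak2, the kinase that stops translation on double-stranded RNA, read 5.91 and 5.84 at day 4, against 5.28, 5.93 and 5.79 at day 0. Its change was 0.21, and 0.014 to 0.34 when 1 array was left out, the lowest without day 0 replicate 1 and the highest without day 0 replicate 2. Dhx58, a regulator of the RNA helicase sensors, read 6.13 and 5.93 at day 4, against 6.09, 5.88 and 5.73 at day 0. Its change was 0.13. Leaving out 1 array moved it to 0.028 (day 4 replicate 1 left out), 0.043 (the third untreated array), 0.22 (the first untreated array) or 0.23 (day 4 replicate 2).

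The membrane proteins of the list block viral fusion (the IFITM family) or hold budding virions at the surface (Bst2, tetherin). Ifitm3 read 12.86 and 12.78 at day 4, against 12.69, 12.68 and 12.76 at day 0, and its 95% interval of -0.11 to 0.33 was narrow. Ifitm1 and Ifitm2 changed by 0.16 and -0.091 with overlapping arrays. Bst2 read 9.33 and 9.32 at day 4, against 8.50, 8.52 and 9.70 at day 0. The 1 untreated array, day 0 replicate 3, exceeded both day 4 arrays, and the change of 0.42 had a 95% interval of -0.46 to 1.30. Without day 0 replicate 3 the Bst2 change was 0.82 (limma adjusted p = 0.0579), and without day 0 replicate 1 or 2 it was 0.22 and 0.23.

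Of the remaining members, Rtp4, a chaperone of receptors, read 10.47 and 10.03 at day 4, against 9.81, 9.75 and 9.92 at day 0, a change of 0.42 ± 0.15 (SE; limma adjusted p = 0.185). Ifi27l2a read 10.24 and 9.24 at day 4, against 9.43, 9.46 and 9.34 at day 0. The gap of 1.004 between its 2 day 4 arrays was the widest of the 28 genes, with replicate 2 under every untreated array. Parp14, which adds ADP-ribose to proteins, read 9.48 and 9.08 at day 4, against 9.09, 9.09 and 9.12 at day 0. Ifi35 read 9.05 and 9.07 at day 4, against 9.25, 9.14 and 9.35 at day 0, with both day 4 arrays below the untreated ones (change -0.19, limma adjusted p = 0.348). The Trim30a change was -0.014 with overlapping arrays. On its other set, at 8.30 and 8.37 at day 4 against 8.41, 8.45 and 8.44 at day 0, both day 4 arrays were below the untreated ones.

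For all 9 members with more than 1 probe set, sets under the filter included, the changes of the sets had 1 sign, beside 53.8% of the 4956 genes with several sets. That share includes genes with no set past the filter, whereas each of the 9 members had a set past it, so the groups differ in level. Of the 6 members with several sets past the filter, the position of the day 4 arrays against the untreated ones differed between sets for Cmpk2 and Trim30a, and the order of the 2 day 4 arrays for Rsad2. The Rtp4 sets gave 0.42 and 0.33, the Stat2 sets 0.43 and 0.28, the Gbp2 sets 0.34 and 0.20, and the Cmpk2 sets 0.46 and 0.13. The Gbp2 set that represents the gene is of a kind whose probes can match other transcripts, and the 2 Gbp2 sets agreed on the difference between the day 4 arrays (0.92 and 0.73).

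The day 4 arrays were compared with each other. Replicate 1 exceeded replicate 2 for 22 of the 28 effector genes (78.6%), beside 43.8% of all genes. The difference was over 0.5 for 10 of them (35.7%), beside 5.83% of all genes, and under -0.5 for 0, beside 4.24%. The median difference was 0.36, beside -0.038 over all genes. Replicate 1 lay above all untreated arrays for 21 of the 28 (75%), beside 29.8% of all genes, and replicate 2 for 10 (35.7%), beside 33.9%. Between untreated arrays the median difference over the same genes was 0.050, -0.044 and -0.083, and between day 4 replicate 2 and the untreated arrays it was -0.013 to 0.054. The difference has 1 array on each side, so it carries no test.

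On the sets that represent the genes, the 6 members that did not share this order were Oas2, Ifitm2, Stat2, Rsad2, Ifi35 and Trim30a, with differences of -0.020 to -0.24. Of the 10 members whose day 4 arrays both exceeded the untreated ones, 3 were among these 6 (Oas2, Stat2 and Rsad2), and Rsad2 only by that set. The other Stat2 set, which did not pass the filter, had the reverse order, at 4.12 and 3.86 on day 4 replicates 1 and 2. Values of other cells also differed between the 2 day 4 arrays. The median of replicate 1 minus replicate 2 was -0.25 for the 12 endothelial markers, 0.17 for 17 macrophage and myeloid markers, 0.30 for 9 fibroblast and pericyte markers and 0.95 for 7 thymic epithelial markers. The part of these cells in the difference of the effector genes was not tested.

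**Figure D4:**
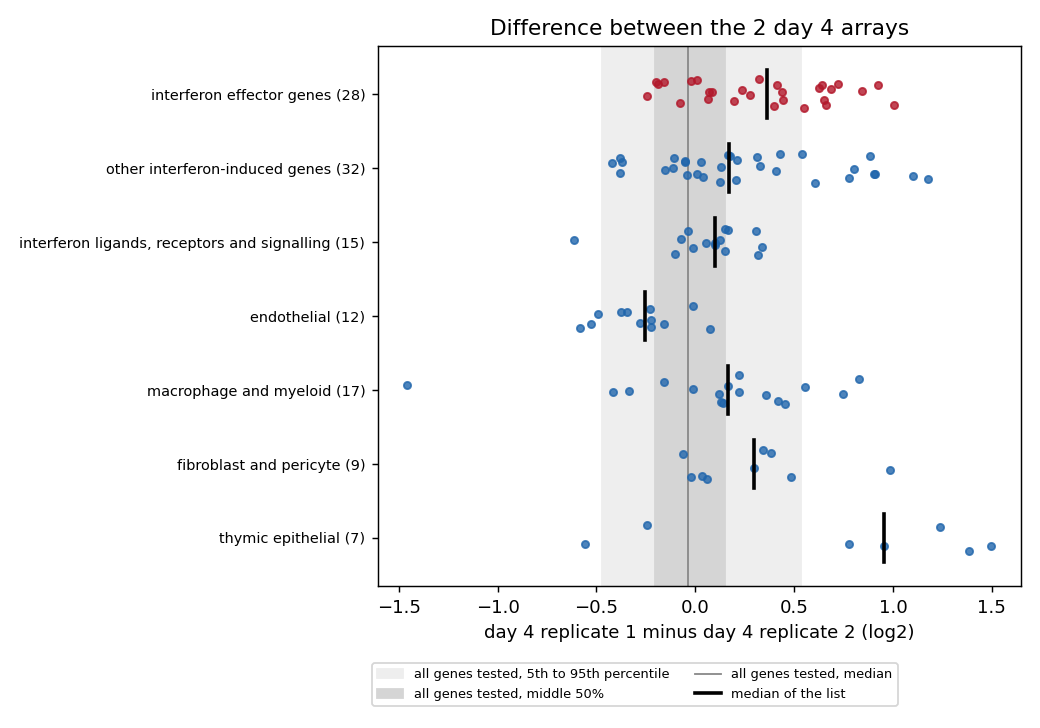
Day 4 replicate 1 minus day 4 replicate 2 (log2) for each gene (points) of 7 lists, with list medians (black bars) and, as bands, the spread over all 8940 genes; brackets give the genes tested. The median of the effector genes is 0.36 and that of the endothelial markers -0.25, on either side of the all-gene median of -0.038.

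A fit with day 4 replicate 1 as the only irradiated array called 4 effector genes higher and 0 lower, where 2.38% of 8851 genes were called higher. These were Oasl1 at 1.37, Ifit1 at 1.24, Ifi27l2a at 0.83 and Gbp2 at 0.66, with limma adjusted p of 0.023 to 0.0476. With day 4 replicate 2 alone, 0 were called in either direction, and 0.113% of 8882 genes were called. Ifi27l2a and Gbp2 had the opposite sign there, at -0.17 and -0.26. These fits take their spread from the 3 untreated arrays and assume that the lone day 4 array varies like them.

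Genes that make, carry or regulate the signal were compared as lists. Of 7 interferon genes with a probe set (Ifnb1, Ifng and 5 of the alpha family), 6 stayed under the filter, with a highest value of 3.80 on any array. Ifna1 passed, at means of 4.57 at day 4 and 4.50 at day 0. Its values of 4.39 to 4.65 lay close to the filter level of 4. They come from a set of the kind whose probes can match other transcripts. The list of interferon ligands, receptors and signalling had 15 of 25 genes tested and a median change of 0.063. It had 0 called, beside 2.85% of all genes. At an unadjusted limma p under 0.05, 3 of the 15 were higher and 0 lower, beside 10.1% and 11.1% of all genes. Ifnar1 and Ifnar2, the receptor chains for type I interferon, changed by -0.07 and -0.14. Irf9, the DNA-binding subunit of the ISRE complex, read 7.98 and 7.64 at day 4, against 7.41, 7.53 and 7.54 at day 0, and its change of 0.32 did not pass (limma adjusted p = 0.228).

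Of 12 tested genes in the list of inducing sensors, adaptors and kinases, 2 were called higher (Irf7 and Trim25) and 0 lower. Over all 8940 genes, 134 were called higher and 121 lower. At an unadjusted limma p under 0.05, 4 of the 12 were higher and 1 lower, beside the same 10.1% and 11.1%. Tlr7, 1 of those higher, was under the filter level of 4 on all day 0 arrays and passed only through the day 4 arrays. Irf7, the transcription factor that amplifies interferon production, read 8.55 and 8.57 at day 4, against 7.66, 7.75 and 7.94 at day 0. Its rise was 0.78 ± 0.11 (SE; limma adjusted p = 0.0293), and its 2 day 4 arrays differed by 0.017. Trim25, a ubiquitin ligase that activates the RNA sensor RIG-I, read 10.77 and 10.58 at day 4, against 9.97, 10.10 and 9.92 at day 0, and rose by 0.68 ± 0.11 (SE; limma adjusted p = 0.0362). Its other 2 probe sets gave 0.74 and 0.85. Irf7 was not called when any 1 array was left out, and Trim25 was then called only without day 4 replicate 2 (adjusted p = 0.0482). Leaving out 1 array, the limma adjusted p of Irf7 lay between 0.0571 and 0.118 and that of Trim25 between 0.0482 and 0.125, with changes of 0.71 to 0.86 and 0.59 to 0.77. With the replicate number as a block, Trim25 was not called (adjusted p = 0.0557).

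The list of other interferon-induced genes had 32 of 50 tested and a median change of 0.13, with 0 called, beside 2.85% of all genes. At an unadjusted limma p under 0.05 the list had 6 higher and 4 lower, beside 10.1% and 11.1% of all genes. Its median difference between day 4 replicates 1 and 2 was 0.17, with 9 of the 32 over 0.5 and 0 under -0.5, beside 5.83% and 4.24% of all genes. The 3 lists, in the order given, had median changes of 0.14, 0.21 and 0.20 with day 4 replicate 1 alone. The median over all genes was -0.050 on that array. With day 4 replicate 2 alone the list medians were 0.014, 0.14 and -0.041, beside 0.0033 over all genes. Ifi204, a DNA sensor found in macrophages among other cells, read 6.87 and 5.96 at day 4, against 5.42, 5.13 and 5.04 at day 0. Irgm1, a GTPase of vacuole defence, read 10.46 and 9.36 at day 4, against 9.08, 9.33 and 9.30 at day 0. Ifi204 and Irgm1 were chosen after their values were seen.

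**Figure D5:**
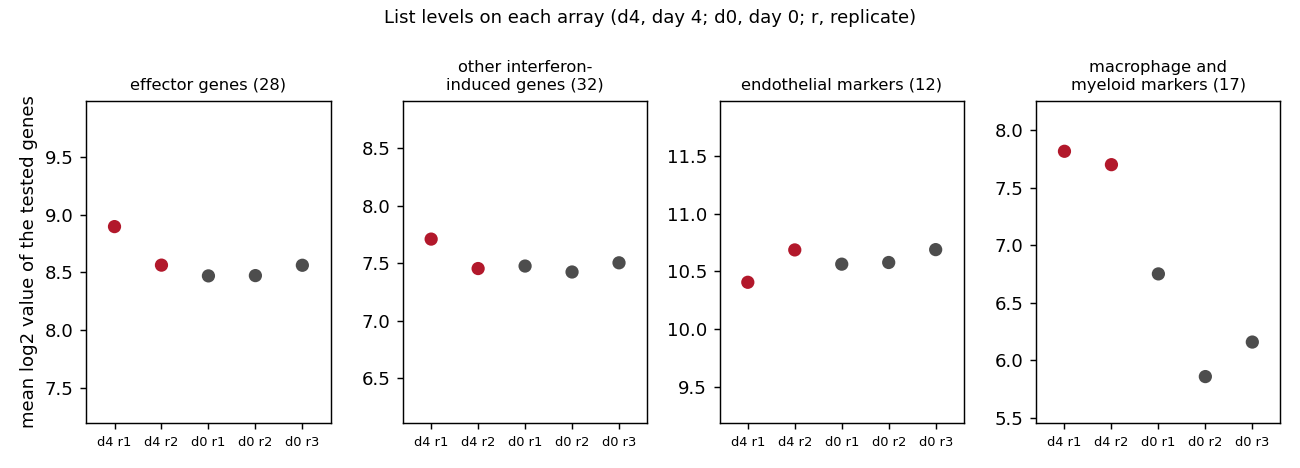
Mean log2 value of the tested genes of 4 lists on each of the 5 arrays (red, day 4; grey, day 0), on axes of equal height. The macrophage and myeloid mean is 7.82 and 7.70 at day 4 against 5.86 to 6.75 at day 0, while the effector mean is 8.90 and 8.56 at day 4 and 8.47 to 8.56 at day 0.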

How the data were processed

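RNA of sorted thymic endothelial cells was hybridised to single-colour Affymetrix MOE 430 A 2.0 arrays. The deposited values are 1 log2 value per probe set and array, and per the submitters' processing notes the authors computed them by GCRMA. The GCRMA version is not given in the sources used here, nor is it stated if all arrays were run as 1 set. GCRMA sets the arrays to a common distribution, which hides a shift shared by most genes, and low values are near background. No label gave a batch or date.

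Probe sets with 1 gene symbol and a log2 value above 4 on at least 2 arrays were kept (13868), and each gene was represented by the set with the highest mean (8940 genes). The day 4 minus day 0 contrast was fitted in limma 3.58.1 (R 4.3.3; lmFit, then eBayes), two-sided and without covariate. Residual degrees of freedom were 3 and prior ones 3.29, and the number of arrays limits precision. Pools may differ technically, so p-values measure the spread between these arrays. The fit was tested on simulated data with planted changes larger than that of any tested effector gene, so smaller changes were not covered. Figures were drawn with matplotlib 3.10.9.

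All called members were to be named, along with those whose arrays separated the groups and up to 2 per role group by size of change. Of each other list, called genes were named. The members, the lists and the rule were chosen with earlier results of these data known. Alternatives covered scaling, the filter, the probe-set choice, eBayes settings, weighting of arrays, a replicate block, and leaving out each array. A longer form of the ISRE had been searched before the one reported. Replicate numbers are shared by the groups, but no label says that they pair samples.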

Additional observations from a re-analysis of the deposited data

How the results depend on the processing

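The count of all genes called, 255, was 418 with an intensity trend and robust fitting, 86 with array weights, 481 with the replicate block and 10 to 317 without 1 array (10 without day 4 replicate 1, 40 without day 0 replicate 3). Effector genes called higher, 0 of 28, numbered 1 with a filter at 6 and 1 with an intensity trend and robust fitting (both times Oasl1, adjusted p of 0.0489 and 0.0449), 3 with the replicate block (Oasl1, Ifit1 and Bst2) and 0 to 4 without 1 array. The block absorbs day 0 replicate 3, the only array of its number, so its estimates are those without that array, but the calls differ: without day 0 replicate 3 the adjusted p of Oasl1, Ifit1 and Bst2 were 0.168, 0.255 and 0.0579 and 0 were called. No label pairs the samples, so the numbers were not taken to pair them. The deviations of same-numbered arrays correlated at 0.16 and 0.078. With 2 day 4 arrays these deviations mirror each other, so the correlations cannot decide on pairing. Effector genes called lower numbered 0 under every alternative run. The calls of the 3 other interferon lists, 2, were 0 with array weights and 0 to 7 without 1 array, 3 with trend and robust fitting (Jak2 added), and 2 with the block, where Ifi204 (adjusted p = 0.00921) stood in place of Trim25 (0.0557). The median change of the effector genes was 0.17 to 0.23 under the other settings and 0.051 to 0.35 without 1 array.

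Signs of several genes depended on the arrays included. Without 1 array the changes ranged from -0.099 to 0.22 for Ifih1, -0.26 to 0.36 for Zbp1, -0.014 to 0.22 for Oas1a, -0.0095 to 0.40 for Oasl2, -0.26 to 0.66 for Gbp2, -0.58 to 0.079 for Gbp3 and -0.21 to 0.032 for Ifitm2. They ranged from -0.022 to 0.62 for Usp18, -0.14 to 0.41 for Cmpk2, -0.67 to 0.016 for Isg20, -0.022 to 0.38 for Parp14, -0.17 to 0.83 for Ifi27l2a and -0.11 to 0.085 for Trim30a, which was 0.0525 with the replicate block and was above 0 without day 0 replicate 2 (0.0051), day 0 replicate 3 (0.0525) or day 4 replicate 1. The cause was not tested. The median difference between the 2 day 4 arrays was 0.31 to 0.41 under the scalings, filters and probe-set choices run. Values near the filter rest on background signal.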

Other observations

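Of the probe sets left out for their several symbols, 2 named a listed gene among them. The set annotated to both Isg15 and Gm9706 read 9.88 and 9.35 on the day 4 arrays, against 7.86, 8.14 and 9.30 on the day 0 arrays. Isg15 encodes a ubiquitin-like protein induced by interferon, and the signal of this set cannot be assigned to it. As with Bst2, day 0 replicate 3 was the highest untreated array. The other set, annotated to Trim30d and Trim30a, read 5.98 and 6.06 at day 4 and 5.44, 5.65 and 5.93 at day 0.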
